A study of Mus musculus with 6 samples.

Results

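The microRNAs (miRNAs) miR-10a, miR-10b, miR-99a, miR-99b, miR-100, miR-125a and miR-125b were followed on 6 locked nucleic acid arrays of CT26, a colorectal cancer line of the mouse. Every mouse probe of the array that carries 1 of these 7 names was taken, both arms of the precursor included, which gave 15 of 1126 mouse probes for 7 of 652 mouse miRNA names. A probe counted as measured where the mean background-subtracted intensity of its 4 spots was 50 or more on at least 3 arrays, and otherwise as low. By that rule 7 member probes were measured and 8 were low, against 372 measured and 754 low among all mouse probes. The measured 7 were miR-10b-5p, miR-99a-5p, miR-99b-5p, miR-99b-3p, miR-125a-5p, miR-125b-5p and miR-125b-1-3p.

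All cells were CT26 carrying a pSUPER gfp-neo plasmid, from which a short hairpin RNA is expressed in the cell. The hairpin of the knockdown line targeted TGF-β1, a cytokine whose receptors act on SMAD transcription factors, and the control line had a control hairpin. Samples of both lines were taken at 24, 48 and 72 h, and 1 array was made of each sample, so each group holds 3 arrays. The labels call the transfection stable and give the times as hours of transfection, so the zero point of the times cannot be told from them, nor whether a line is 1 clone or a pool. The Tgfb1 transcript was not on the arrays, and the knockdown itself was not measured.

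Between 321 and 374 mouse probes reached an intensity of 50 on an array, and 7 to 10 of the 15 member probes did. Median background was 89 to 181, highest on the control array of 48 h. Each probe is printed in 2 copies of 2 spots, the first in blocks 1 to 18 and the second in blocks 19 to 36. The copies differed by at least 4-fold for 1 to 23 of the 372 measured probes on an array, most often on the knockdown array of 48 h (6.18%). Of the miRNAs used as markers of intestinal epithelium 5 of 21 probes were measured, of those of fibroblasts and smooth muscle 7 of 9, and of those of blood cells 3 of 9. For muscle, liver and neuron markers, 2 of 9, 1 of 2 and 3 of 7 probes were measured. The measured epithelial probes were miR-31-5p, miR-200c-3p, miR-141-5p, miR-375-3p and miR-375-5p. Their summed intensities were 1181 to 3117 in the knockdown and 1595 to 2137 in the control. The epithelial miR-200a, miR-200b, miR-429, miR-192, miR-194 and miR-215 were not among the measured ones. The summed intensities of the fibroblast and smooth muscle markers were 1525 to 5376 in the knockdown and 3566 to 5405 in the control. The part of these markers in the results below was not tested.

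A miRNA guides the Argonaute protein to messenger RNAs that pair with its seed, the bases 2 to 8 from its 5′ end, and represses them. miR-10, miR-99 and miR-100 descend from 1 ancient animal family, and miR-125 is the vertebrate counterpart of lin-4, the founding miRNA of the worm Caenorhabditis elegans. miR-10a and miR-10b lie in Hox gene clusters, whereas the miR-99, miR-100 and miR-125 genes lie in 3 clusters with a let-7 gene between them. In human cancer cells miR-10b has been tied to invasion, miR-99 and miR-100 to repression of the growth kinase mTOR, and miR-100 and miR-125b to induction by TGF-β.

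The mature sequences show which members a target, or an array probe, could confuse. All 15 member probes were matched by name to a mature sequence of RefSeq (GRCm38.p6). The sequences of the 5p arms are given 5′ to 3′ with the seed in capitals.
miR-10a-5p: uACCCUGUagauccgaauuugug
miR-10b-5p: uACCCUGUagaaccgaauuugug
miR-99a-5p: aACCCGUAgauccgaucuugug
miR-100-5p: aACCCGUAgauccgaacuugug
miR-99b-5p: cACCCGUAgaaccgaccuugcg
miR-125a-5p: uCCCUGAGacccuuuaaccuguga
miR-125b-5p: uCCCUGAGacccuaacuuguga
The 7 fell into 3 seed groups. miR-10a-5p and miR-10b-5p share ACCCUGU and differ by the single substitution U12A, counted from the 5′ end with the miR-10a base first. miR-99a-5p, miR-99b-5p and miR-100-5p share ACCCGUA. miR-99a-5p and miR-100-5p differ by the single substitution U16A, with the miR-99a base first, and miR-99a-5p and miR-99b-5p differ at 4 positions (A1C, U11A, U16C and U21C). miR-125a-5p and miR-125b-5p share CCCUGAG and their first 13 bases, and are 24 and 22 bases long. That seed is also found in miR-351-5p, miR-6367 and miR-6394 of the 1679 mouse mature miRNAs in the table, and the other seeds in no further miRNA there.

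The measured 3p arms have other seeds, shown here because they report on the same precursors through an unrelated sequence.
miR-99b-3p: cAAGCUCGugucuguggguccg
miR-125b-1-3p: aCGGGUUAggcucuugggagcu
miR-125b-5p is made from 2 precursors, at chr9:41581940-41581961 and chr16:77646279-77646300, both on the plus strand (GRCm38.p6). miR-125b-1-3p comes from the chromosome 9 precursor alone. That gene lies with Mir100 and Mirlet7a-2 inside the long non-coding RNA gene Mir100hg, over 50578 bases. Mir125b-2 lies with Mir99a and Mirlet7c-1 over 47408 bases of chromosome 16. Mir99b, Mirlet7e and Mir125a lie within 692 bases of chromosome 17, inside the annotated span of Spaca6. Mir10a (chr11:96317165-96317274) lies within the span of Hoxb3 and 992 bases from Hoxb4. Mir10b (chr2:74726070-74726137) lies within the spans of Hoxd3 and Hoxd4. Exons and introns of these host genes were not analysed here.

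The Hox-linked pair had its highest intensity on 1 array, the knockdown array of 48 h. The probe of miR-10b-5p read 171, 1393 and 73 in the knockdown at 24, 48 and 72 h. In the control it read 301, 397 and 408. The knockdown thus held both the highest and the lowest values, and the groups overlapped. On the log2 scale after normalisation its mean was 8.79 ± 1.21 (SD, n = 3) for the knockdown arrays and 9.06 ± 0.27 (SD, n = 3) for the control arrays. On the knockdown array of 48 h the first copies averaged 2205 and the second copies 580.

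The probe of miR-10a-5p, low by the rule, read -12.0, 1835 and 46.0 in the knockdown and 23.3, 84.8 and 40.3 in the control at 24, 48 and 72 h. It was above 50 on both arrays of 48 h, and at 48 h its normalised intensity was 6.15-fold higher in the knockdown. Both copies were bright on the knockdown array of 48 h, with means of 2603 and 1067. The passenger arm miR-10a-3p read 97.3 and 89.5 on the knockdown arrays of 48 and 72 h and under 50 on the other 4 arrays. The arm miR-10b-3p stayed between -91.0 and -26.8, below background throughout.

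The miR-196 genes lie in the Hox clusters as the miR-10 genes do, and none of their 5 probes was measured by the rule. The probe of miR-196a-5p read 703 on the knockdown array of 48 h, with first copies at 1003 and second copies at 403, and -93.5 to -2.75 on the other 5 arrays. The probe of miR-196b-5p read 168 on the knockdown array of 48 h and -97.5 to -17.3 on the others. The other 3 miR-196 probes were not high there. miR-196b-3p read 343 on the knockdown array of 24 h, 234 on the control array of 72 h and 11.5 on the knockdown array of 48 h. miR-196a-2-3p was highest on the control array of 48 h, at 79.8, and miR-196a-1-3p on the knockdown array of 72 h, at 69.3, and they read -12.8 and -7.0 on the knockdown array of 48 h. The 5p probes of miR-10a, miR-10b, miR-196a and miR-196b were thus highest on the knockdown array of 48 h, and the 3 miR-196 3p probes on other arrays. Of these probes only miR-10b-5p was measured by the rule. The share of all mouse probes highest on that array was not counted. At 48 h, 17.5% of all mouse probes compared were at least 2-fold higher in the knockdown, so a high value there is not particular to these probes. The knockdown array of 48 h is the one on which the copies of a probe disagreed most often, and whether that played a part was not tested.

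Both miR-99 5p probes had their highest intensity on the control array of 48 h instead. The probe of miR-99a-5p read 493, 272 and 259 in the knockdown at 24, 48 and 72 h. In the control it read 562, 1337 and 624. All 3 knockdown arrays were below all 3 control arrays, by a narrow margin at 24 h, and after normexp background correction its 2 copies differed by at most 1.23-fold on any array. After normalisation the means were 8.93 ± 0.50 (SD, n = 3) and 10.04 ± 0.58 (SD, n = 3) on the log2 scale. miR-99a-5p was the only measured member whose normalised values did not overlap between the lines. Over all measured mouse probes 4.3% had all knockdown arrays below all control arrays and 2.96% had them all above.

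The probe of miR-99b-5p read 338, 320 and 295 in the knockdown and 293, 646 and 570 in the control. The knockdown was slightly higher at 24 h and the control was higher at 48 and 72 h. Its means were 8.85 ± 0.23 (SD, n = 3) for the knockdown arrays and 9.41 ± 0.54 (SD, n = 3) for the control arrays on the log2 scale. The opposite arm, miR-99b-3p, read 76.8, 123 and 233 in the knockdown and 120, 58.8 and 87.8 in the control. Its highest value was the knockdown array of 72 h and its lowest the control array of 48 h, where miR-99b-5p was highest.

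The probe of miR-100-5p was low although its sequence differs from miR-99a-5p by the 1 base given above. It read -15.3, 188 and -22.8 in the knockdown and 48.0, -35.3 and 22.3 in the control at 24, 48 and 72 h. The 188 came from the first copies alone, which averaged 396 against -21 for the second copies. miR-100-3p read -76.8 to -20.0 and miR-99a-3p -102 to -37.5. The arrays therefore gave no measured level for either arm of miR-100, which at this background is not evidence of absence.

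The lin-4 relatives miR-125a and miR-125b included the member probe most affected by disagreement between copies. The probe of miR-125b-5p read 3435, 12607 and 5743 in the knockdown at 24, 48 and 72 h. In the control it read 5434, 5396 and 4027. The knockdown array of 48 h stood above the other 5, and the groups overlapped. Its means on the log2 scale were 11.95 ± 0.97 (SD, n = 3) and 12.09 ± 0.53 (SD, n = 3). Behind these means, the first copies on the knockdown array of 72 h averaged 11210 and the second copies 276. On the control array of 48 h they averaged 10275 and 518. On the knockdown array of 48 h the copies were alike, at 12330 and 12883. In the first copies alone, 3 arrays thus read 10275 to 12330 and the other 3, those of 24 h and the control of 72 h, 4781 to 5698.

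**Figure D1:**
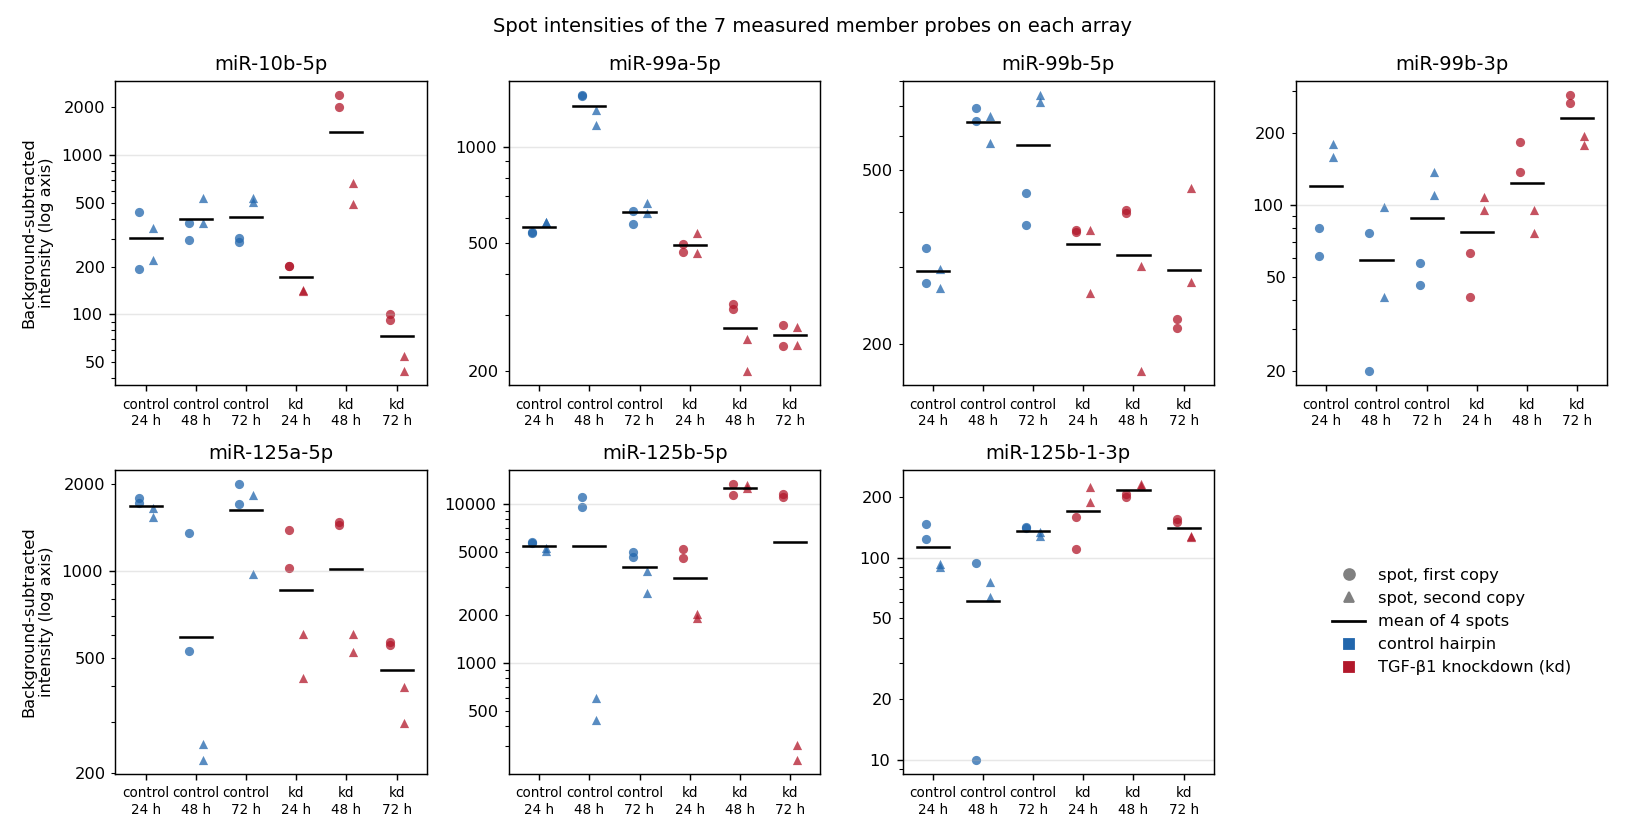
Background-subtracted intensity of each spot (log axis) for the 7 measured member probes on the control arrays (blue) and the TGF-β1 knockdown arrays (red); circles are spots of the first copy, triangles spots of the second copy, and bars the mean of the 4 spots. The triangles of miR-125b-5p lie far below its circles on the control array of 48 h (means of 518 and 10275) and on the knockdown array of 72 h (276 and 11210), while the spots of miR-99a-5p lie together on each array.

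The probe of miR-125a-5p read 860, 1012 and 453 in the knockdown and 1673, 589 and 1629 in the control at 24, 48 and 72 h. The control was higher at 24 and 72 h and lower at 48 h. Its means were 9.61 ± 0.55 (SD, n = 3) and 10.34 ± 0.90 (SD, n = 3) on the log2 scale. On the control array of 48 h its first copies averaged 941 and its second copies 237. The passenger arm miR-125a-3p, which lay just outside the rule, read 14.8, 49.5 and 44.8 in the knockdown and 136, 22.8 and 188 in the control. It followed miR-125a-5p in being brightest on the control arrays of 24 and 72 h. miR-125b-1-3p, the arm specific to the chromosome 9 gene, read 170, 216 and 140 in the knockdown and 113, 61.0 and 136 in the control. As intensities, which are not scaled between arrays, all 3 knockdown values were above all 3 control values, narrowly at 72 h (140 and 136). After normalisation the groups overlapped. The share of all probes without overlap was counted on normalised values only. miR-125b-2-3p, from the chromosome 16 gene, read -64.8 to 28.3.

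**Figure D2:**
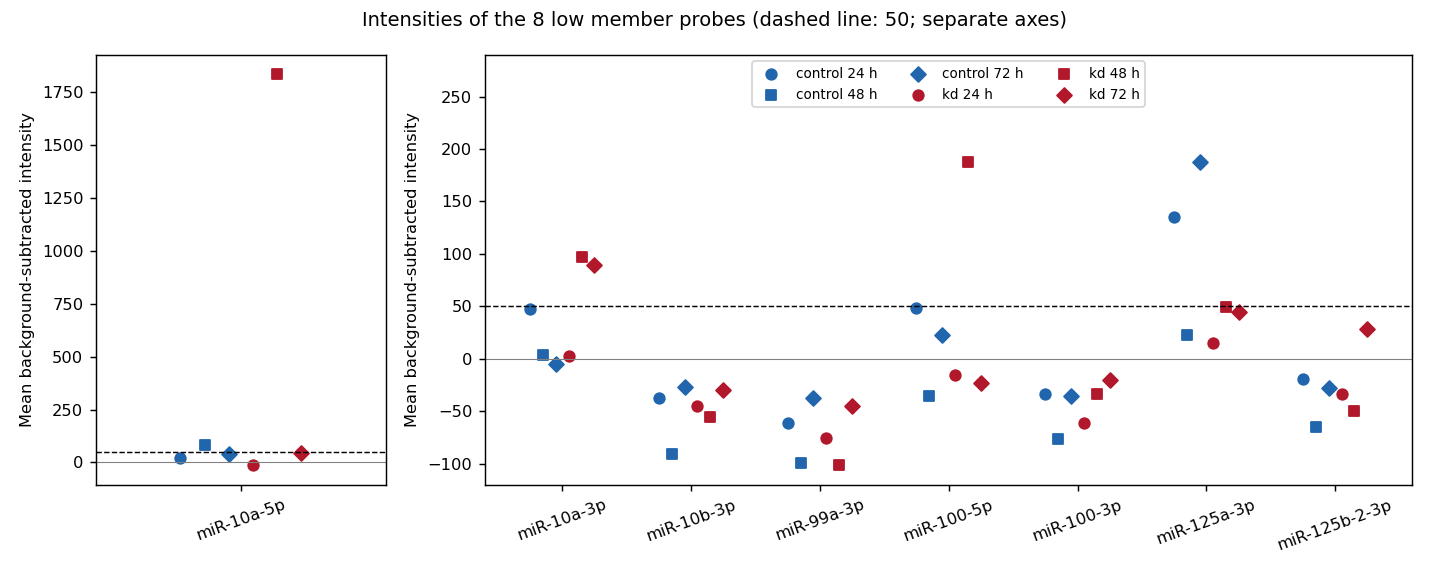
Mean background-subtracted intensity of the 8 low member probes on the 6 arrays, with colour for the line and marker shape for the time point; the dashed line marks 50, and miR-10a-5p has an axis of its own. miR-10a-5p reached 1835 on the knockdown array of 48 h and stayed at or below 84.8 on the others, and 4 probes stayed below 50 on all 6 arrays.

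The comparison asked whether the level of these miRNAs differs between the knockdown line and the control line. The 3 arrays of a line are different times of that line. Effects of TGF-β1, of the hairpin and of the line therefore cannot be told apart. None of the 7 measured members changed past the threshold (limma with the time point as a block, two-sided, Benjamini-Hochberg adjusted p under 0.05 over 372 probes), and 0% of all 372 probes did. At an unadjusted p under 0.05 there were 0 members and 1 probe in all. Of the members 5 had a negative and 2 a positive mean difference, with a median of -0.27 on the log2 scale, beside 215 negative, 157 positive and a median of -0.11 over all probes. miR-99a-5p had the most negative difference, -1.11 (limma adjusted p = 0.998), and its 95% interval ran from -2.48 to 0.26. Next was miR-125a-5p with -0.74 (-2.16 to 0.68; limma adjusted p = 0.998), then miR-99b-5p with -0.55 (-1.87 to 0.76; limma adjusted p = 0.998). miR-10b-5p differed by -0.27 and miR-125b-5p by -0.14, whereas miR-99b-3p differed by 0.21 and miR-125b-1-3p by 0.32, with intervals that all included 0. A typical interval over all probes reached 1.29 to either side, so differences of about 2-fold were not detectable with 3 arrays a line. These intervals are not adjusted for the number of probes, so passing the adjusted threshold would take a difference larger still.

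All 7 differences moved by over 1.5 times in some case when 1 time point was left out, and those of miR-10b-5p and miR-125b-5p changed sign. miR-10b-5p differed by -0.23 without 24 h, by -0.94 without 48 h and by 0.35 without 72 h. miR-125b-5p differed by 0.15 without 24 h, by -0.95 without 48 h and by 0.38 without 72 h. miR-99a-5p ran from -1.63 without 24 h to -0.71 without 48 h, and miR-125a-5p from -1.39 without 48 h to -0.16 without 72 h. miR-99b-5p ran from -0.96 without 24 h to -0.25 without 72 h, miR-99b-3p from 0.09 without 72 h to 0.38 without 24 h, and miR-125b-1-3p from 0.12 without 48 h to 0.55 without 72 h. From the first copies alone, a choice made after the data were seen, miR-10b-5p differed by 0.06 and miR-125b-5p by 0.09. The median over the 7 members was -0.23 without 24 h, -0.71 without 48 h and 0.09 without 72 h.

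At single time points a difference comes from a single pair of arrays, with no replicate check, and was described by its size against 2-fold. A side below 50 was set to the lowest normalised value among mouse probes of at least 50 on that array, unless its own value was higher. At 24 h, 0 of 8 member probes with an intensity of 50 or more in either line differed by 2-fold. Of all mouse probes compared at that time, 2.42% were higher by 2-fold or more in the knockdown and 7.99% were lower. miR-125a-5p came nearest at 24 h, with -0.89 ± 0.31 (SE over spots, which covers spot noise only) on the log2 scale.

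At 48 h, 3 of 10 member probes were at least 2-fold higher in the knockdown and 1 was lower, beside 17.5% higher and 9.75% lower over all probes. The higher ones were miR-10a-5p by 2.62 ± 0.39 (SE over spots), miR-125b-5p by 1.48 ± 1.12 and miR-10b-5p by 1.05 ± 0.50 on the log2 scale. The lower one was miR-99a-5p, by -1.93 ± 0.11. From the first copies alone miR-125b-5p differed by -0.21 at 48 h and from the second copies alone by 3.93. The corresponding values were 1.59 and 0.39 for miR-10b-5p, 3.06 and 2.05 for miR-10a-5p, and -1.96 and -1.76 for miR-99a-5p. The size at 48 h was thus close between copies for miR-99a-5p, whereas for miR-125b-5p the sign depended on the copy.

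At 72 h, 5 of 9 member probes were at least 2-fold lower in the knockdown and 0 were higher, beside 22.2% lower and 12.6% higher over all probes. They were all the measured 5p arms. miR-125a-5p differed by -1.88 ± 0.27 (SE over spots), miR-10b-5p by -1.52 ± 0.20, miR-99a-5p by -1.33 ± 0.05, miR-125b-5p by -1.19 ± 1.42 and miR-99b-5p by -1.16 ± 0.26 on the log2 scale. The 3p arms miR-99b-3p and miR-125b-1-3p differed by 0.44 and -0.13. The median over the 7 measured members was -1.19 at 72 h, against -0.39 over all measured probes. As mean intensities of the 4 spots, however, miR-125b-5p was higher in the knockdown (5743) than in the control (4027) at 72 h. From the first copies alone miR-125b-5p differed by 0.52 at 72 h, and from the second copies alone by -3.03. The other 4 lower probes kept their sign in each copy, between -1.92 and -1.04 from the first copies and between -1.80 and -1.10 from the second. Under median scaling 2 member probes rather than 5 were at least 2-fold lower.

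**Figure D3:**
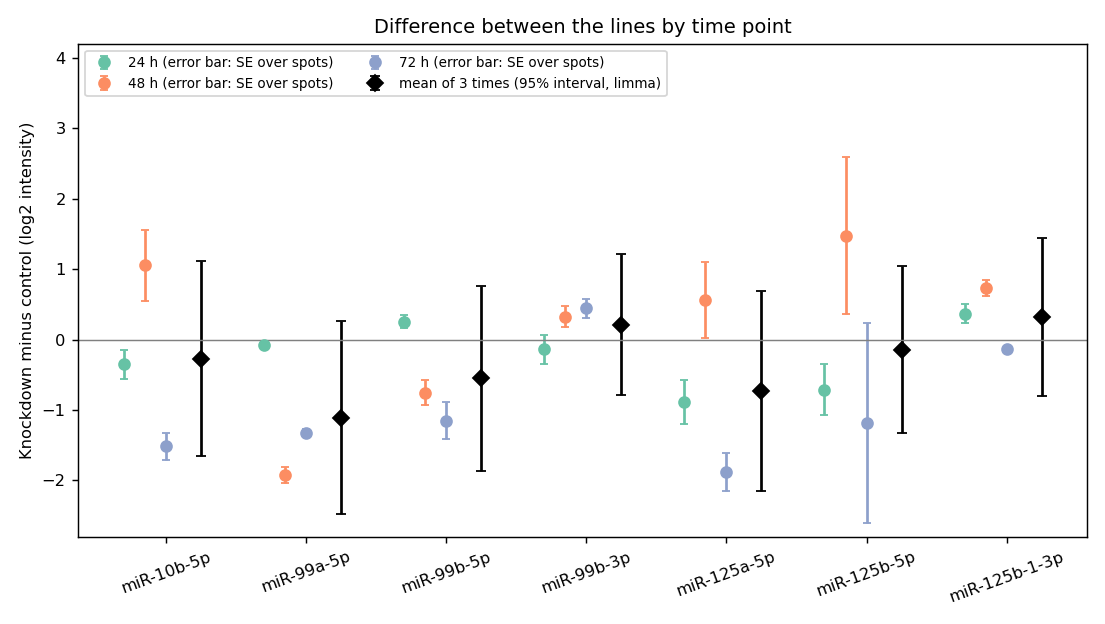
Knockdown minus control on the log2 scale for the 7 measured members at 24 h (green), 48 h (orange) and 72 h (blue), with the standard error over spots, and the mean over the 3 time points (black) with its 95% interval from limma. The 5p arms lie below 0 at 72 h, miR-10b-5p and miR-125b-5p lie above 0 at 48 h and miR-99a-5p at -1.93, and every black interval crosses 0.

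**Figure D4:**
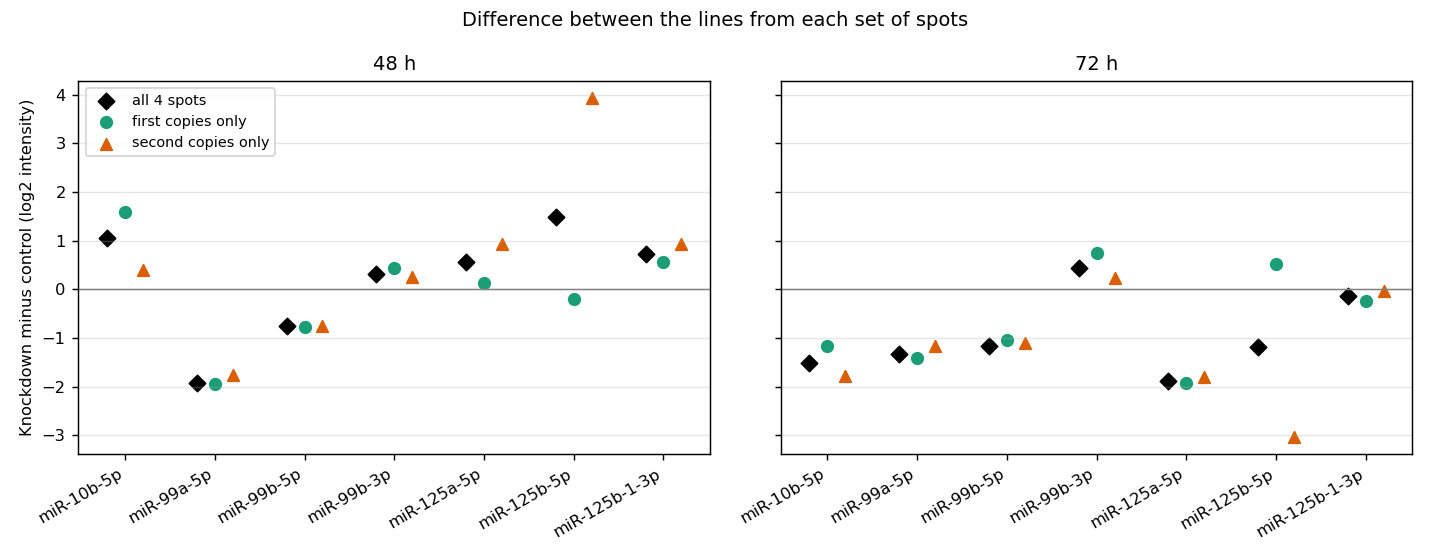
Knockdown minus control on the log2 scale at 48 h and at 72 h from all 4 spots (black), from the first copies alone (green) and from the second copies alone (orange), for the 7 measured members. For miR-125b-5p the copies gave -0.21 and 3.93 at 48 h and 0.52 and -3.03 at 72 h, on opposite sides of 0 at each time, while for miR-99a-5p they gave -1.96 and -1.76 at 48 h.

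A term for the line at 48 h asked whether the difference at that time departed from the difference at the other times, which is a test with 1 residual degree of freedom. Its intervals and p-values therefore rest largely on a spread that limma pooled over the measured probes, not on the spread of the probe itself. The term passed for 3.49% of all probes (13 of 372) and for 0 of the 7 members. Its largest value among the members was that of miR-125b-5p, 2.43 (95% interval 0.72 to 4.14; limma adjusted p = 0.103), the 1 member with an unadjusted p under 0.05. miR-10b-5p had 1.99 (limma adjusted p = 0.667), miR-125a-5p 1.95 (limma adjusted p = 0.663) and miR-99a-5p -1.22 (limma adjusted p = 0.831). The value of miR-125b-5p turned to -0.44 from the first copies alone (limma adjusted p = 0.985) and rose to 6.18 from the second copies alone (limma adjusted p = 0.179). With the median of the spots it passed the threshold, at 2.72 (limma adjusted p = 0.0149). The same term at 24 h or at 72 h passed for 0% of all probes, and 1 and 25 probes respectively had an unadjusted p under 0.05.

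Whether the members moved with time was asked as a slope per day over both lines. The slopes were small, from -0.26 for miR-125a-5p and miR-125b-5p to 0.13 for miR-99b-5p on the log2 scale, and 0 of 7 members and 0% of all probes passed (limma, smallest adjusted p = 0.999 over all probes). The slope of the knockdown less that of the control was below 0 for 6 of the 7, from -0.70 per day for miR-99b-5p, -0.63 for miR-99a-5p and -0.58 for miR-10b-5p to 0.29 for miR-99b-3p. For this difference of slopes too 0 of 7 members and 0% of all probes passed (limma, smallest adjusted p = 0.931), and over all probes 220 of 372 were below 0. Each of these tests had 9 probes, and 0 members, at an unadjusted p under 0.05.

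The members were also compared with each other over the 6 arrays, as a description, since the points share arrays and their scaling. Of 21 pairs of measured members 13 had a positive and 8 a negative Pearson correlation. The highest were miR-99a-5p with miR-99b-5p at 0.82, which lie on different chromosomes and share a seed, and miR-10b-5p with miR-125b-5p at 0.82. The copies of miR-125b-5p disagree on 2 of these arrays. miR-125a-5p and miR-125b-5p correlated at 0.68. The lowest were the miR-99b-3p correlations, -0.88 with miR-99a-5p and -0.73 with miR-99b-5p, the other arm of its own precursor. miR-99b-3p was dim, at 58.8 to 233, and its log2 range over the arrays was 0.62, against a median of 1.43 over measured probes. Its copies differed by up to 1.52-fold, on the control array of 24 h. The part of spot noise in these correlations was not tested.

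**Figure D5:**
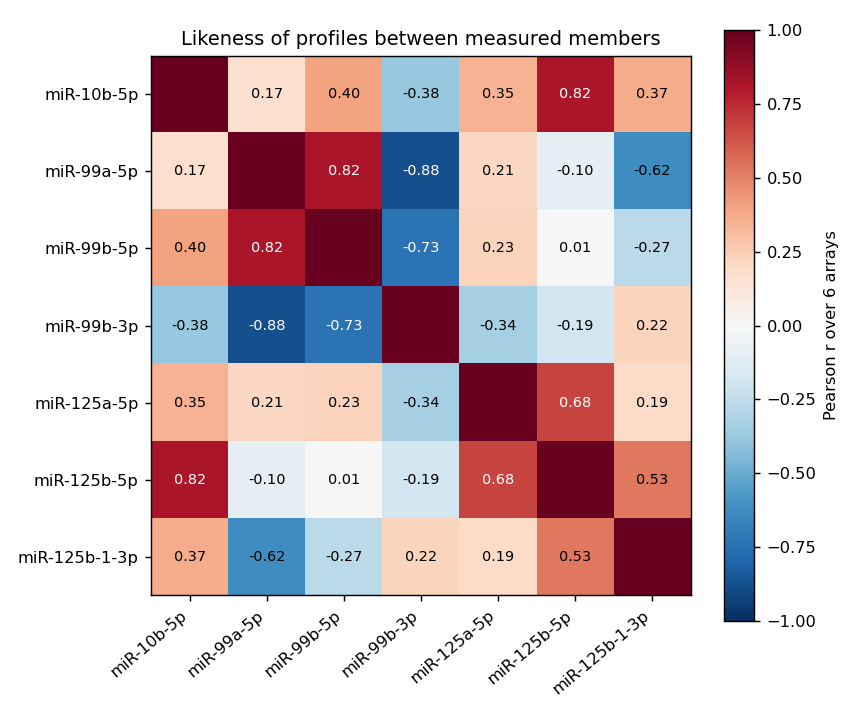
Pearson correlation over the 6 arrays of the normalised log2 intensity for each pair of measured member probes, from -1 (blue) to 1 (red). miR-99a-5p and miR-99b-5p, and miR-10b-5p and miR-125b-5p, correlate at 0.82, and miR-99b-3p runs against both miR-99 5p arms.

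Within the genomic clusters the let-7 neighbours sit between the miR-99 or miR-100 gene and the miR-125 gene, and they repress growth genes such as Ras and Hmga2. Of 7 probes for let-7a, let-7c and let-7e 4 were measured, and 0 passed the test between lines. All 4 differences were below 0, with a median of -0.30. let-7e-5p differed by -0.68 (95% interval -2.03 to 0.68; limma adjusted p = 0.998). miR-99b-5p correlated with let-7e-5p at 0.67 and with miR-125a-5p at 0.23 over the 6 arrays, although the 3 genes lie within 692 bases. miR-99a-5p correlated with let-7c-5p at 0.62 and with miR-125b-5p at -0.10. let-7c-5p and let-7a-5p, each also made from another gene elsewhere, correlated with miR-125b-5p at -0.46 and -0.37. The part of the disagreement between copies of miR-125b-5p in its correlations was not tested. At 48 h let-7a-5p differed between the lines by -1.75, let-7c-5p by -1.27 and let-7e-5p by -1.12 on the log2 scale, the same sign as miR-99a-5p and miR-99b-5p, whereas let-7a-2-3p, the arm specific to the Mir100 cluster, differed by 0.45. At 72 h let-7a-5p differed by 0.82 and let-7c-5p by 0.38, opposite in sign to the miR-99 5p probes, and let-7e-5p by -0.96 and let-7a-2-3p by -0.69. miR-351-5p, which shares the miR-125 seed, read 509, 145 and 714 in the knockdown and 373, 571 and 468 in the control. It was lowest on the knockdown array of 48 h, where miR-125b-5p was highest, and differed by -0.28 between the lines (limma adjusted p = 0.998).

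Outside the group, the probes whose profile was most like the mean of the 5 measured 5p members over the 6 arrays were miR-29b-1-5p with a Pearson correlation of 0.95, miR-3090-3p with 0.95, miR-130a-3p with 0.94, miR-362-3p with 0.92 and miR-29a-5p with 0.91. The least like were miR-433-5p with -0.95 and miR-882 with -0.93. That mean lay at -0.91 on the knockdown array of 72 h, at 0.50 on the control array of 72 h, and between -0.16 and 0.23 on the others. For single members the nearest probe was miR-211-5p for miR-99a-5p (0.99), miR-3066-3p for miR-125a-5p (0.98), miR-31-5p for miR-125b-5p (0.98), miR-201-3p for miR-99b-3p (0.97), miR-151-5p for miR-10b-5p (0.97), miR-483-3p for miR-99b-5p (0.97) and miR-1264-3p for miR-125b-1-3p (0.83). The copies of miR-125b-5p disagree on the control array of 48 h and the knockdown array of 72 h. The part of this in its match and in the mean of the 5p members was not tested. None of the nearest probes was another member. Each was the highest among all other of the 372 measured probes, of which only 7 are members, over 6 arrays. A non-member as the nearest probe therefore says little about the group.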

How the data were processed

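The authors deposited, per the file headers, for each of 15840 spots an array a foreground intensity and the intensity less background, with no scaling between arrays. Per the labels' protocols, Hy3-labelled total RNA was hybridised in 1 colour. Array version, scanner software and genome build are not given in the sources used here. A second deposited table holds a ratio per probe, equal within a relative tolerance of 1e-06 to the median background-subtracted intensity over 1 number per array, between 313.5 and 397. The ratio's choice of scaling number stays unknown. It was used with 0.15 added before log2 as an alternative, with blanks taken as 0.

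Intensities underwent normexp background correction (offset 50; limma 3.58.1, R 4.3.3) and log2 transformation. A probe's value was the mean of its 4 spots, and quantile normalisation was run over 3438 mouse, viral and unnamed probes, control spots left out. The models were fitted over 372 measured probes with a variance trend and robust estimation, and were tested on simulated data. The simulated noise was independent, and the simulated effects other than 0 were larger than any member difference in the main tests. The simulation therefore does not show how well effects of the size seen here would be found. Array number limits the precision, and p-values measure only the spread between these arrays, which limma pooled in part over the probes. The time point from the labels was the block. Deviations of same-time arrays from their line means correlated at -0.30, -0.52 and -0.34 at 24, 48 and 72 h, so a shared time brought no shared deviation. Members, companion lists, tests and alternatives were chosen with earlier results of these data known. All member probes are named. Companions were named whatever they showed, and like probes by the highest and lowest correlation. The use of each copy alone and of spot medians was added after the files were seen. Sequences are from RefSeq (GRCm38.p6).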

Additional observations from a re-analysis of the deposited data

Results flagged for a closer look

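The flag looked for measured members that passed for the line term at 48 h or the difference of slopes, and found 0. Among low member probes it looked only for those that reached 50 in the knockdown and were brighter there than on any control array. It picked 3, each brightest on the knockdown array of 48 h, which stood outside every test because of the rule on low values. The share of all low mouse probes that would be picked was not counted. miR-125a-3p, also low, went the other way, with 136 and 188 in the control at 24 and 72 h and at most 49.5 in the knockdown. miR-10a-5p read 1835 there, against a highest control intensity of 84.8. miR-100-5p read 188, against a highest control intensity of 48.0, from its first copies alone. miR-10a-3p read 97.3, against a highest control intensity of 47.0, with both copies above 50. Groups of 3 arrays are too small for a check of single outlying arrays, so none was made.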

How the results depend on the processing

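The 7 members passed the test between lines under none of the 19 alternatives, the fit with no replicate block included, where 0 probes passed, the member median was -0.27 and the adjusted p of each member was 0.975 (limma). Over all probes 0 to 3 passed when a time point was left out, 3 without 48 h. Of 462 recomputed member tests 426 kept direction and call, 32 changed sign and 4 passed only under the alternative. Of 297 single-time differences 238 stayed within 2 standard errors over spots of the main value and 56 moved further. The other 3 changed sign from a main difference of at least 2-fold. Sign changes of smaller single-time differences were not counted. Among them, miR-99b-3p at 24 h went from -0.14 to 0.04 from the first copies. miR-125b-5p between lines became 0.30 under median scaling, 0.16 with no scaling, 0.38 in the ratio table and 0.0858 from the first copies; miR-10b-5p became 0.0596 from the first copies. With a time point left out these ran from -0.95 to 0.38 and from -0.94 to 0.35. The difference of slopes of miR-125b-5p became 0.12 under median scaling, 0.45 in the ratio table and 0.29 from the first copies. Its 72 h difference became 0.41 in the ratio table, and the first copies gave 0.52 at 72 h, -0.21 at 48 h and -0.44 for the 48 h term. The 48 h term of miR-99b-3p became -0.32 under median scaling and -0.23 under quantiles over mouse probes. Slopes near 0 changed sign most. That of miR-125b-1-3p became 0.0346 under plain subtraction, 0.0486 under median scaling, 0.00848 under cyclic loess, 0.0302 with no scaling, 0.0398 with array weights and 0.0317 from the first copies. That of miR-10b-5p became 0.19 with array weights and 0.0412 from the second copies, that of miR-125b-5p 0.0889 in the ratio table and 0.20 from the first copies, and that of miR-99b-5p -0.0213 from the first copies. With a time point left out the slopes ran from -1.05 to 1.01 for miR-10b-5p, -0.85 to 0.33 for miR-125a-5p, -0.11 to 0.38 for miR-99b-5p, -0.0124 to 0.24 for miR-99b-3p, -0.59 to 0.0764 for miR-125b-5p, -0.53 to 0.20 for miR-99a-5p and -0.0321 to 0.0142 for miR-125b-1-3p. The 48 h term passed for 13 probes, against 5 under median scaling, 23 under cyclic loess, 1 with 50 or more on all 6 arrays, 21 over all mouse probes, 28 in the ratio table, 22 with neither trend nor robust fit, 26 from the first copies and 0 from the second. It passed for 1 member, miR-125b-5p, with no background correction, cyclic loess, no scaling and the median of spots. Members 2-fold lower at 24 h numbered 2 by a 1.5-fold rule, plain subtraction or the second copies and 1 in the ratio table. At 48 h, 2 were lower by a 1.5-fold rule, plain subtraction or mouse quantiles, and 6 and 7 were higher under plain subtraction and in the ratio table. At 72 h, 2 were higher under plain subtraction or in the ratio table, and 2 lower under median scaling. Causes were not tested. The difference of slopes and the 48 h term were not run with a time point left out, nor the 48 h term with array weights.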
